A study of Mus musculus with 15 samples.

Results

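The genes described are 9 genes of the insulin response and of glucose uptake, taken by name from the mouse annotation out of 25700 genes listed in the deposited files: Slc2a4, Slc2a1, Trarg1, Insr, Irs1, Irs2, Tbc1d4, Pik3r1 and Akt2. All 9 were found, and all 9 had enough counts to be among the 12279 genes tested. RNA was sequenced from 3T3-L1 cells, an established line of mouse preadipocytes that becomes fat-storing adipocytes after confluent cultures receive dexamethasone, IBMX and insulin. The 5 groups, with 3 libraries each, were MIGA2-GFP cells at day 6 (overexpression, per the labels, of MIGA2 joined to green fluorescent protein), MIGA2-KO cells at day 6 and at day 0 (labelled as depleted of MIGA2), and WT cells at day 6 and at day 0. Day 0 is the moment at which the differentiation medium was added, and per the labels insulin was later left out of the medium, so that cells at day 6 were harvested in medium without added insulin. MIGA2 (mitoguardin 2) sits in the outer membrane of mitochondria. The labels give neither the method of depletion nor whether the MIGA2-KO line is 1 clone, and they do not say in which parental cells MIGA2-GFP was expressed. MIGA2-GFP cells at day 0 are not analysed here, so no change over time was measured for them. The comparisons ask how the mRNA of these genes changes as 3T3-L1 cells differentiate, and whether depletion or overexpression of MIGA2 shifts it.

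Insulin acts on a fat cell through the insulin receptor, a tyrosine kinase at the surface that phosphorylates the substrates IRS1 and IRS2. These recruit phosphoinositide 3-kinase, the lipid product of which activates the kinase AKT2, and AKT2 in turn inhibits TBC1D4, a brake on the small Rab GTPases that move storage vesicles. The vesicles carry the glucose transporter GLUT4, the product of Slc2a4, to the cell surface. Fibroblast-like preadipocytes take up glucose mainly through GLUT1, the product of Slc2a1, which sits at the surface without insulin, and GLUT4 is a classical product of the mature adipocyte and of muscle.

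Promoters of 3 of the genes are shown because their transcripts took different courses. Tbc1d4 and Pik3r1 were higher at day 6 in both lines, whereas Irs1 was lower at day 6 in WT cells. The sequences are 300-base windows around an annotated start from RefSeq (build GRCm38.p6, all on the reverse strand of the chromosome and written 5′ to 3′ in the direction of the gene). Capitals mark the motifs searched for, on both strands. The windows are chr14:101609142-101609441 for Tbc1d4, chr13:101768168-101768467 for Pik3r1 and chr1:82291390-82291689 for Irs1.
Tbc1d4: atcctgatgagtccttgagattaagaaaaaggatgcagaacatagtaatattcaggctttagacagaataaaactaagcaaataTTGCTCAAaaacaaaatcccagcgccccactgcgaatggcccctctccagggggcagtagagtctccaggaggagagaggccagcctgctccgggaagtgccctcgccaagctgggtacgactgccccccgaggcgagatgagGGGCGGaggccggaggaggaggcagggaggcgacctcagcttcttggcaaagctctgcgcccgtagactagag
Pik3r1: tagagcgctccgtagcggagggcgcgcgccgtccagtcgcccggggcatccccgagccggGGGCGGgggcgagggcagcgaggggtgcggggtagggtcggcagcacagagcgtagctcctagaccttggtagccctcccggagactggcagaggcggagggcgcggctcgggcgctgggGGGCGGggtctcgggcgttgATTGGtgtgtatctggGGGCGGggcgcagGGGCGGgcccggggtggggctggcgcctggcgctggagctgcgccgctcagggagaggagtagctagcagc
Irs1: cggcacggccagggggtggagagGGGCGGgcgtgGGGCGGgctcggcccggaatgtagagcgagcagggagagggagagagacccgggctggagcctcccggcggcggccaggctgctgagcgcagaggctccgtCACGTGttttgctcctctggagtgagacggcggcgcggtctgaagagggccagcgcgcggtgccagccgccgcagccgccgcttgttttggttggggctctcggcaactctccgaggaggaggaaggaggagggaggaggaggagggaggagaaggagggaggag
Searched were CCAAT, which is bound by the factor NF-Y, and the GC box, GGGCGG, which is bound by factors of the SP family. The E-box CACGTG was the next motif. A motif of the type bound by C/EBP factors was written TTGCNNAA. The direct repeat of the PPAR response element was written AGGTCANAGGTCA, and its repeated unit for a single nuclear receptor, which also lies within the direct repeat, was AGGTCA. Of 32851 promoter windows of the same length, 37.4% held CCAAT, 35.7% the GC box, 7.15% the E-box, 10.8% TTGCNNAA, 16.3% the single AGGTCA and 0.0396% the direct repeat. The Tbc1d4 window held TTGCNNAA starting at position -166 from the start site and a GC box at -23. In the Pik3r1 window there were GC boxes at -190, -70, -34 and -21, and CCAAT on the opposite strand at -50. The Irs1 window held GC boxes at -227 and -216 and an E-box at -115. Windows were likewise found for Slc2a1, Irs2 and Akt2, so that 6 of the 9 genes were matched. The Irs2 window also held an E-box, at -44, and a GC box at -85, and Irs2 was higher at day 6 in WT cells. For Pik3r1 the table holds 2 start sites, and the window of the other (chr13:101692581-101692880) held none of these motifs. A match in letters is a description of the window and no evidence of binding.

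Depth and the make-up of the libraries bear on every value below. Total counts per library ran from 10748668 to 13443736 among the MIGA2-GFP libraries, 10956827 to 12151824 among those of MIGA2-KO day 6, 11867305 to 12619058 for MIGA2-KO day 0, 12139151 to 12355905 for WT day 6 and 19625147 to 26003871 for WT day 0. Levels are given as CPM, the usual scaling of counts to library totals, here after TMM normalization of those totals. Replicate 1 stood apart from the other pair in WT day 0, WT day 6 and MIGA2-KO day 6: the chi-square of counts per degree of freedom for pairs of libraries reached 130, 66.5 and 36.6 in these groups, against at most 1.89 in MIGA2-GFP and 2.79 in MIGA2-KO day 0. Miga2 mRNA itself was at 165.5, 155 and 158.5 CPM in MIGA2-GFP, 925, 74.5 and 70.0 CPM in MIGA2-KO day 6 and 145, 159 and 182 CPM in WT day 6, so that the Miga2 level of the library labelled MIGA2-KO day 6 replicate 1 goes against its label. The method of depletion is not given, and whether that label is wrong was not tested. The MIGA2-GFP range lay within that of WT day 6, so the Miga2 counts show no excess in MIGA2-GFP. At day 0 Miga2 stood at 17.2 to 22.5 CPM in MIGA2-KO and 13.6 to 17.7 CPM in WT, and the counts show no depletion there. The groups are called by their labels throughout. Deviations of the WT libraries from their group went with GC content and transcript length (correlation across genes of -0.576 to 0.434 with GC content and of -0.587 to 0.509 with length), which matters most for the long transcripts of Insr, Irs1 and Pik3r1. The summed CPM of 8 adipocyte markers (Adipoq, Plin1, Fabp4, Cidec, Lipe, Lep, Cfd and Pparg) was 19580 to 21270 in MIGA2-GFP, 5980 to 9417 in MIGA2-KO day 6 and 29850 to 43260 in WT day 6, and 45.6 to 65.6 over both lines at day 0. Of these markers 8 of 8 were called lower in MIGA2-KO than in WT at day 6, where 31.5% of all genes tested were. In MIGA2-GFP 5 of 8 were called lower than in WT, where 18.9% of all genes were, and none was called higher. Plin1 nevertheless stood at 828 to 883 CPM in MIGA2-GFP and 501 to 641.5 CPM in WT day 6. The summed CPM of 8 preadipocyte and fibroblast markers was 5850 to 6159 in MIGA2-GFP, 10890 to 18680 in MIGA2-KO day 6, 14280 to 15860 in MIGA2-KO day 0, 5314 to 5774 in WT day 6 and 16190 to 20860 in WT day 0.

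Slc2a4 encodes GLUT4, the transporter that insulin sends to the cell surface (ENSMUSG00000018566, GRCm38 chromosome 11: 69942539 to 69948188, reverse strand). Its mRNA was at 361, 338 and 340.2 CPM in the MIGA2-GFP libraries, 94.99, 17.1 and 15.9 CPM in MIGA2-KO day 6 and 189.9, 216 and 223 CPM in WT day 6. No count was found in any of the 6 libraries of day 0, which allows a level of up to 0.0792 CPM in MIGA2-KO and 0.0401 CPM in WT (3 counts over the group, for counting error only). The 3 day 6 groups did not overlap, with MIGA2-GFP highest and MIGA2-KO lowest. Slc2a4 was lower in MIGA2-KO than in WT at day 6 by a log2 fold change of -2.30 ± 0.56 (SE), or 4.91-fold (edgeR adjusted p = 0.00457). With the library labelled MIGA2-KO day 6 replicate 1 left out the difference was -3.65 (edgeR adjusted p = 2.33e-08). MIGA2-GFP exceeded MIGA2-KO by 3.02 ± 0.57 (edgeR adjusted p = 0.00144), and by 4.36 without that library. Against WT, MIGA2-GFP stood higher by 0.73 ± 0.53, with an interval of -0.44 to 1.89, and this did not pass (edgeR adjusted p = 0.305). The spread of MIGA2-KO enters that test through the shared fit: with the library labelled MIGA2-KO day 6 replicate 1 left out the same difference was 0.71 and passed (edgeR adjusted p = 0.000516). Over time Slc2a4 rose at least 533-fold in MIGA2-KO cells (edgeR adjusted p = 6.33e-05), or at least 209-fold without replicate 1 of day 6, and at least 5220-fold in WT cells (edgeR adjusted p = 1.79e-06). In these bulk libraries fewer cells that express a gene and less mRNA per cell cannot be told apart.

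Muscle also expresses Slc2a4, and 10 skeletal muscle markers were therefore read in the same libraries. Their summed level was 5.23 to 6.74 CPM in MIGA2-GFP, 2.52, 1.24 and 108.5 CPM in MIGA2-KO day 6 and 3.89 to 6.403 CPM in WT day 6, with Myod1 and Myog without a count in all 3 groups. Slc2a4 was at 15.9 CPM in MIGA2-KO day 6 replicate 3, the library with the most muscle transcripts, and at 17.1 CPM in replicate 2. The part of muscle transcripts in the Slc2a4 level was not tested. The summed level of 6 macrophage markers was 33.0 to 33.7 CPM in MIGA2-GFP, 34.0 to 43.0 CPM in MIGA2-KO day 6, 91.9 to 94.2 CPM in MIGA2-KO day 0, 23.4 to 32.9 CPM in WT day 6 and 87.3 to 123 CPM in WT day 0. Ptprc, the pan-leukocyte marker CD45, had no count in any library. Of the 4 macrophage markers tested 2 were higher in MIGA2-KO than in WT at day 6, where 29.2% of all genes were. Their part in the results was not tested. Endothelial markers summed to at most 1.41 CPM.

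Slc2a1 encodes GLUT1, the transporter that works without insulin (ENSMUSG00000028645, chromosome 4: 119108711 to 119137983, forward strand). It was at 175, 163 and 159 CPM in MIGA2-GFP, 87.5, 44.9 and 38.2 CPM in MIGA2-KO day 6, 106, 104 and 96.96 CPM in MIGA2-KO day 0, 97.6, 121 and 125 CPM in WT day 6 and 104, 101.0 and 81.4 CPM in WT day 0. MIGA2-KO day 6 was lowest and MIGA2-GFP highest at that day, without overlap, and all other neighbours in the order of levels overlapped. Slc2a1 was lower in MIGA2-KO than in WT at day 6 (-1.01 ± 0.23, edgeR adjusted p = 0.00162), with -1.45 when the library labelled MIGA2-KO day 6 replicate 1 was left out. It fell in MIGA2-KO cells between the days (-0.85 ± 0.23, edgeR adjusted p = 0.00714), whereas in WT cells the difference was 0.26 ± 0.22, with an interval of -0.22 to 0.74 (edgeR adjusted p = 0.322). MIGA2-GFP exceeded MIGA2-KO by 1.54 ± 0.23 (edgeR adjusted p = 9.67e-05). Its difference from WT was 0.53, with an interval of 0.05 to 1.01, and did not pass after adjustment (edgeR adjusted p = 0.0786). It passed in 6 of 24 alternatives. Among them were the analysis without replicate 1 of MIGA2-KO day 6 (edgeR adjusted p = 0.00488) and those with GC content and transcript length corrected for.

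**Figure D1:**
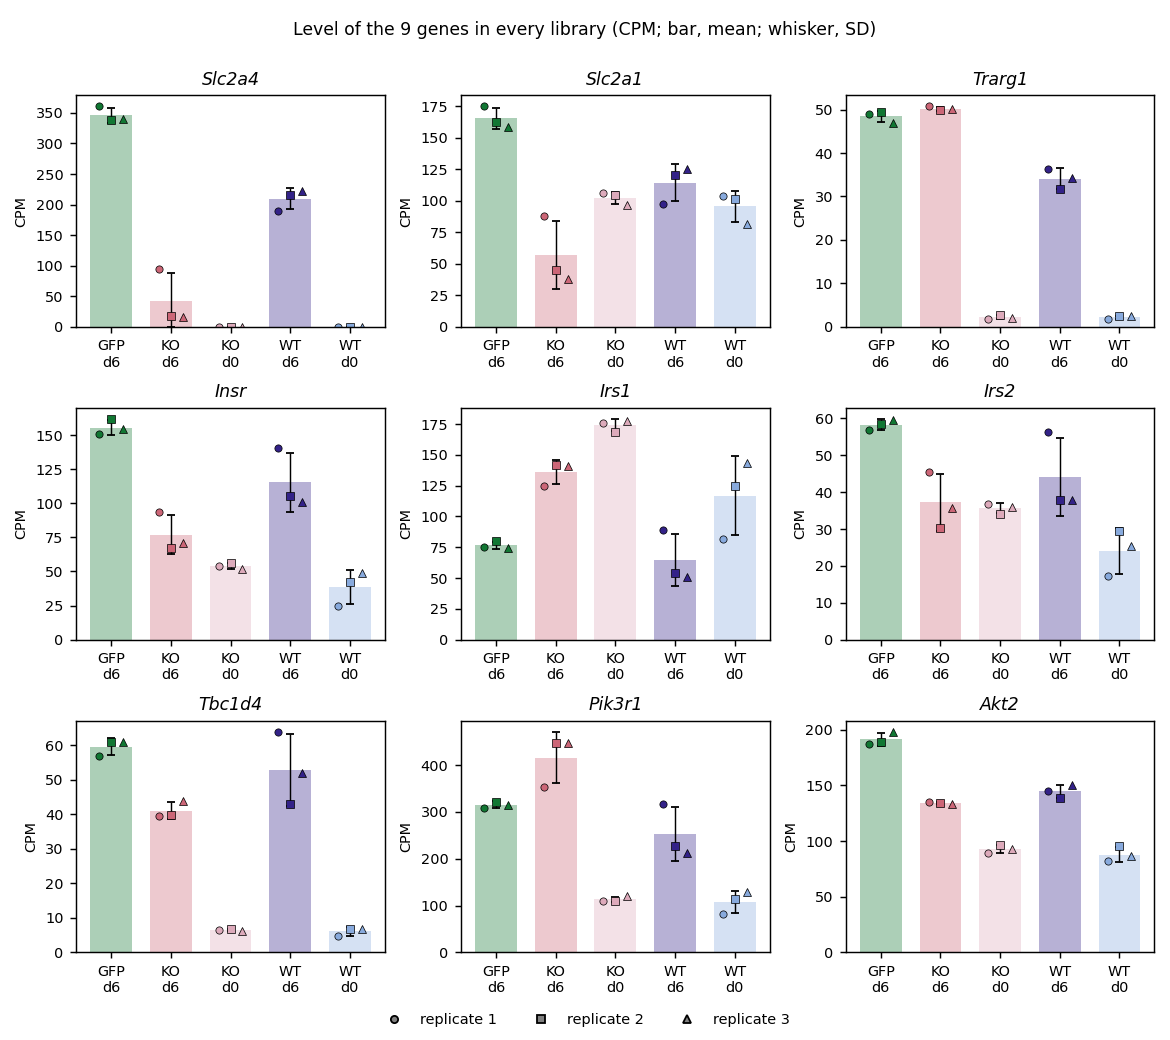
Level of each of the 9 genes in every library, in CPM on a linear axis that starts at 0, by group (MIGA2-GFP day 6, MIGA2-KO day 6, MIGA2-KO day 0, WT day 6, WT day 0). Bars are means and whiskers SD of 3 libraries, and the points are replicates 1 to 3. Slc2a4 is at 338 to 361 CPM in MIGA2-GFP, 15.9 to 94.99 CPM in MIGA2-KO day 6 and 189.9 to 223 CPM in WT day 6, and absent from the counts at day 0.

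The make-up of the transporter family was read per length of transcript, as CPM per kb, so that genes can be set beside each other. Slc2a4 supplied 60.7% of the summed level of 12 Slc2a genes in MIGA2-GFP (mean of 3 libraries, 60.4% to 61.2%), 24.4% in MIGA2-KO day 6 (15.1% to 42.2%) and 54.5% in WT day 6 (52.9% to 56.5%). The highest MIGA2-KO share came from the library labelled replicate 1. Slc2a1 made up 28.7% in MIGA2-GFP, 38.6% in MIGA2-KO day 6 and 29.4% in WT day 6, and at day 0 it made up 67.2% in MIGA2-KO and 66.7% in WT. The summed level itself was 159.9 to 171 CPM per kb in MIGA2-GFP, 28.7 to 64.8 in MIGA2-KO day 6, 41.6 to 45.1 in MIGA2-KO day 0, 96.6 to 121 in WT day 6 and 36.2 to 43.4 in WT day 0. The family thus stood higher at day 6 than at day 0 in WT without overlap, while the MIGA2-KO days overlapped through replicate 1 of day 6 alone: its other libraries, at 32.5 and 28.7, lay below all of day 0. Slc2a8, which encodes the intracellular transporter GLUT8, held 7.55% of the family in MIGA2-GFP, 20.4% in MIGA2-KO day 6 (10.8% to 26.1%) and 12.1% in WT day 6 (9.65% to 14.3%). The lowest MIGA2-KO share of Slc2a8 came from the library labelled replicate 1. Its mean level was nevertheless lower in MIGA2-KO day 6, at 7.48 CPM per kb, than in MIGA2-GFP (12.4) and WT day 6 (13.65). The ratio of Slc2a4 to Slc2a1, per kb, was 2.08, 2.09 and 2.16 in MIGA2-GFP, 1.09, 0.385 and 0.420 in MIGA2-KO day 6 and 1.96, 1.80 and 1.80 in WT day 6. Transcripts for GLUT4 therefore outnumbered those for GLUT1 per length in 7 of the 9 libraries of day 6, the exceptions being MIGA2-KO replicates 2 and 3.

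**Figure D2:**
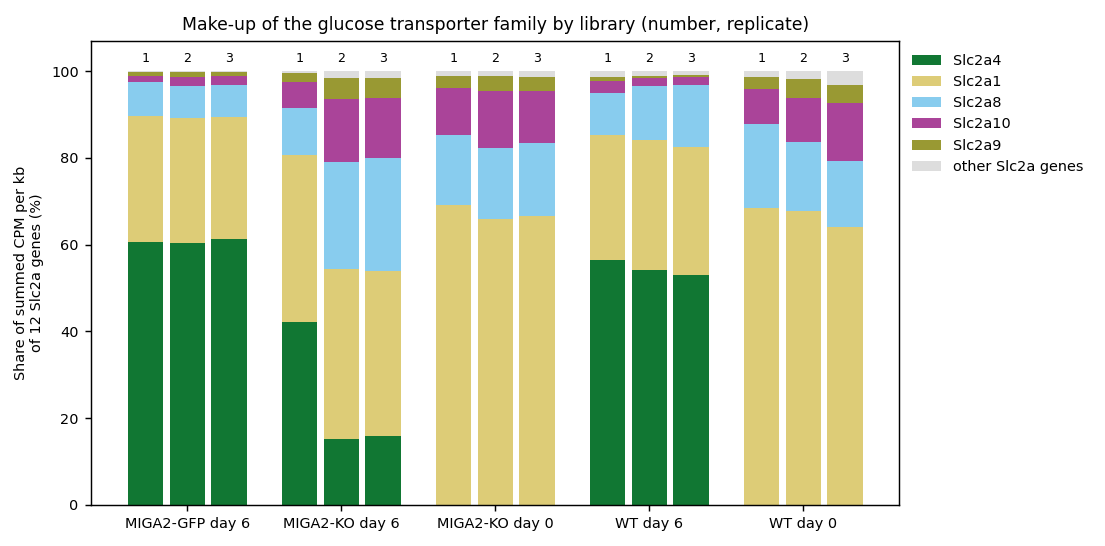
Share of the summed CPM per kb of 12 Slc2a genes held by each gene, in percent, with 1 bar per library and the replicate number above it. At day 0 no share falls to Slc2a4, and at day 6 its share is 60.4% to 61.2% in MIGA2-GFP, 15.1% to 42.2% in MIGA2-KO and 52.9% to 56.5% in WT.

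Trarg1 encodes a membrane protein of the GLUT4 storage vesicle that regulates its trafficking in mouse adipocytes (ENSMUSG00000046275, chromosome 11: 76679808 to 76698664, forward strand). It stood at 48.9, 49.45 and 47.0 CPM in MIGA2-GFP, 50.75, 49.8 and 50.1 CPM in MIGA2-KO day 6, 36.4, 31.7 and 34.25 CPM in WT day 6, and 1.74 to 2.68 CPM over the 6 libraries of day 0. Both MIGA2-GFP and MIGA2-KO lay above WT at day 6 in all their libraries, and here the library labelled MIGA2-KO day 6 replicate 1 did not stand apart. Trarg1 was higher in MIGA2-KO than in WT at day 6 (0.56 ± 0.12, edgeR adjusted p = 0.0012) and higher in MIGA2-GFP than in WT (0.51 ± 0.12, edgeR adjusted p = 0.00578). Between MIGA2-GFP and MIGA2-KO the difference was -0.05, with an interval of -0.31 to 0.20 (edgeR adjusted p = 0.747). It rose over time in MIGA2-KO (4.52 ± 0.15, edgeR adjusted p = 2.36e-11) and in WT (3.96 ± 0.14, edgeR adjusted p = 1.02e-11). The transporter and its trafficking partner thus lay on opposite sides of WT in MIGA2-KO cells. The ratio of Slc2a4 to Trarg1, per kb, was 7.0, 6.49 and 6.87 in MIGA2-GFP, 1.78, 0.326 and 0.302 in MIGA2-KO day 6 and 4.95, 6.47 and 6.18 in WT day 6, with MIGA2-KO below both other groups.

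Tbc1d4 encodes the Rab GTPase-activating protein AS160, the AKT substrate that holds GLUT4 vesicles inside the cell (ENSMUSG00000033083, chromosome 14: 101442360 to 101609191, reverse strand). It was at 56.85, 61.0 and 61.0 CPM in MIGA2-GFP, 39.6, 39.8 and 43.9 CPM in MIGA2-KO day 6, 6.16 to 6.803 CPM in MIGA2-KO day 0, 63.8, 43.1 and 52.0 CPM in WT day 6 and 4.67 to 6.87 CPM in WT day 0. The WT range at day 6 overlapped both other groups. Tbc1d4 rose over time in MIGA2-KO (2.66 ± 0.17, edgeR adjusted p = 9.52e-09) and in WT (3.11 ± 0.16, edgeR adjusted p = 5.28e-10). MIGA2-GFP exceeded MIGA2-KO by 0.54 ± 0.15 (edgeR adjusted p = 0.00835). MIGA2-KO was lower than WT at day 6 (-0.37 ± 0.15, edgeR adjusted p = 0.0453), a call that was lost in 17 of 24 alternative analyses. It was lost without any 1 library other than replicates 1 and 3 of WT day 0 and replicate 2 of WT day 6, at values of -0.20 (without WT day 6 replicate 1, edgeR adjusted p = 0.221) to -0.41. With GC content and transcript length corrected for, the difference was -0.72 (edgeR adjusted p = 6.51e-06). For MIGA2-GFP against WT the difference was 0.17, with an interval of -0.15 to 0.49 (edgeR adjusted p = 0.385).

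Insr encodes the insulin receptor (ENSMUSG00000005534, chromosome 8: 3122061 to 3279617, reverse strand). Its mRNA was at 151, 162 and 154 CPM in MIGA2-GFP, 93.3, 66.9 and 70.85 CPM in MIGA2-KO day 6, 53.75, 56.2 and 51.6 CPM in MIGA2-KO day 0, 140.4, 105.5 and 100.6 CPM in WT day 6 and 24.5, 42.3 and 48.65 CPM in WT day 0. All 5 groups were free of overlap with their neighbours, in the falling order MIGA2-GFP, WT day 6, MIGA2-KO day 6, MIGA2-KO day 0 and WT day 0. The receptor rose over time in WT cells (1.58 ± 0.21, 3.00-fold, edgeR adjusted p = 9.34e-06). In MIGA2-KO cells the change of 0.52 ± 0.21 did not pass (edgeR adjusted p = 0.0547), though it did in 10 of 24 alternatives, among them those without replicate 1 or 3 of WT day 0, replicate 1 of WT day 6 or replicate 2 of MIGA2-KO day 6. At day 6 Insr was lower in MIGA2-KO than in WT (-0.58 ± 0.20, edgeR adjusted p = 0.0228). That call was lost without WT day 6 replicate 1 (edgeR adjusted p = 0.0958) and without either of replicates 2 and 3 of MIGA2-KO day 6, and the difference was -1.20 with GC content and transcript length corrected for. MIGA2-GFP exceeded MIGA2-KO by 1.01 ± 0.21 (edgeR adjusted p = 0.00102). Against WT it stood 0.43 higher and did not pass (edgeR adjusted p = 0.113), and the value was 0.06 with both corrected for. At day 0 the difference of MIGA2-KO from WT, 0.48, did not pass either (edgeR adjusted p = 0.0829), though it did without WT day 0 replicate 3 (0.69, edgeR adjusted p = 0.0204).

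Irs1 encodes the receptor substrate that couples the receptor to phosphoinositide 3-kinase (ENSMUSG00000055980, chromosome 1: 82233101 to 82291416, reverse strand). It was at 75.1, 79.97 and 74.2 CPM in MIGA2-GFP, 125, 141.5 and 141 CPM in MIGA2-KO day 6, 176, 168.5 and 177.5 CPM in MIGA2-KO day 0, 88.75, 54.0 and 51.1 CPM in WT day 6 and 81.6, 125 and 144 CPM in WT day 0. It was the only one of the 9 genes with its highest mean level at day 0, in MIGA2-KO cells, and MIGA2-KO lay above WT at day 6 in all libraries. Irs1 was higher in MIGA2-KO than in WT at day 6 by 1.07 ± 0.20, or 2.10-fold (edgeR adjusted p = 0.000454), and this call held in all 24 alternatives, with values of 0.64 to 1.44. It fell over time in WT (-0.85 ± 0.20, edgeR adjusted p = 0.0019), where WT day 6 replicate 1 overlapped the range of day 0. The difference between the days in MIGA2-KO, -0.36 ± 0.20, did not pass (edgeR adjusted p = 0.167), although the ranges did not overlap. MIGA2-GFP was lower than MIGA2-KO (-0.83 ± 0.20, edgeR adjusted p = 0.00382). Against WT its difference was 0.24, with an interval of -0.19 to 0.68 (edgeR adjusted p = 0.37). At day 0 MIGA2-KO was higher than WT by 0.58 ± 0.20 (edgeR adjusted p = 0.0387), a call lost in 7 of 24 alternatives, among them those without WT day 0 replicate 1 (0.37) or replicate 2 or any 1 library of MIGA2-KO day 0. Exons of Irs1 overlap those of Gm9747, on the opposite strand, over 30.9% of their length. Gm9747 itself received 1 to 16 counts per group, and how strand was set in the counting is not stated in the sources used.

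Irs2 encodes the other main substrate of the receptor in fat cells (ENSMUSG00000038894, chromosome 8: 10984681 to 11008458, reverse strand). It stood at 56.8, 58.5 and 59.7 CPM in MIGA2-GFP, 45.5, 30.4 and 35.8 CPM in MIGA2-KO day 6, 36.7, 34.2 and 36.0 CPM in MIGA2-KO day 0, 56.2, 37.9 and 37.9 CPM in WT day 6 and 17.2, 29.6 and 25.4 CPM in WT day 0. MIGA2-GFP was highest and WT day 0 lowest, each without overlap with its neighbour, and the 3 groups between them overlapped. Irs2 rose over time in WT (0.87 ± 0.20, edgeR adjusted p = 0.00141), against 0.06 in MIGA2-KO, with an interval of -0.36 to 0.49 (edgeR adjusted p = 0.831). At day 6 MIGA2-KO differed from WT by -0.24 (interval -0.67 to 0.18, edgeR adjusted p = 0.305). MIGA2-GFP exceeded MIGA2-KO by 0.65 ± 0.20 (edgeR adjusted p = 0.0147), a call lost without MIGA2-KO day 6 replicate 2 or replicate 3. MIGA2-KO was higher than WT at day 0 by 0.56 ± 0.20 (edgeR adjusted p = 0.0404), which was lost in 11 of 24 alternatives, among them those without WT day 0 replicate 1 (0.37, edgeR adjusted p = 0.132) or any 1 library of MIGA2-KO day 0 or MIGA2-GFP. Per kb of transcript, Irs1 stood at 0.915, 0.945 and 0.860 times the level of Irs2 in MIGA2-GFP, 1.90, 3.22 and 2.73 times in MIGA2-KO day 6, 3.32, 3.41 and 3.41 times in MIGA2-KO day 0, 1.09, 0.985 and 0.932 times in WT day 6 and 3.29, 2.92 and 3.91 times in WT day 0. The MIGA2-KO libraries of day 6 thus held an excess of Irs1 that the other groups of day 6 lacked, and the ranges did not overlap. These ratios are without correction for GC content and transcript length. In WT day 6 the estimated log2 trend of replicates 1 to 3 was -0.113, -0.438 and -0.475 for Irs1. For Irs2 it was -0.238, -0.21 and -0.093, and its part in the ratio was not tested.

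Pik3r1 encodes p85α, the regulatory subunit that docks phosphoinositide 3-kinase on the substrates, and its shorter forms (ENSMUSG00000041417, chromosome 13: 101680563 to 101768217, reverse strand). It was at 308, 322 and 316 CPM in MIGA2-GFP, 352.5, 448 and 447 CPM in MIGA2-KO day 6, 109, 110.5 and 120.1 CPM in MIGA2-KO day 0, 318, 227 and 213 CPM in WT day 6 and 82.15, 114 and 129 CPM in WT day 0. MIGA2-KO day 6 lay above both other groups of day 6 in all libraries, and MIGA2-GFP overlapped WT. Pik3r1 rose over time in MIGA2-KO (1.88 ± 0.17, 3.67-fold, edgeR adjusted p = 5.69e-07) and in WT (1.22 ± 0.17, 2.33-fold, edgeR adjusted p = 1.69e-05). MIGA2-KO exceeded WT at day 6 by 0.72 ± 0.17 (edgeR adjusted p = 0.00207). With GC content and transcript length corrected for this was 0.11 and no longer passed (edgeR adjusted p = 0.212). MIGA2-GFP was 0.32 above WT (interval -0.04 to 0.68), with an edgeR adjusted p of 0.152. Its difference from MIGA2-KO, -0.40 ± 0.17, did not pass either (edgeR adjusted p = 0.0622), but passed in 10 of 24 alternatives, among them those without replicate 1 or 3 of WT day 0 or of WT day 6, or without replicate 1 of MIGA2-KO day 6. The ratio of Pik3r1 to Insr per kb was 2.78, 2.72 and 2.79 in MIGA2-GFP, 5.15, 9.13 and 8.60 in MIGA2-KO day 6 and 3.09, 2.93 and 2.89 in WT day 6, with MIGA2-KO above both other groups.

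Akt2 encodes the AKT kinase on which insulin-stimulated glucose uptake in adipocytes mainly depends (ENSMUSG00000004056, chromosome 7: 27591552 to 27640826, forward strand). It stood at 187, 189 and 198 CPM in MIGA2-GFP, 135, 134 and 133 CPM in MIGA2-KO day 6, 89.4, 96.5 and 92.7 CPM in MIGA2-KO day 0, 145, 139 and 150.6 CPM in WT day 6 and 82.1, 95.2 and 86.5 CPM in WT day 0. MIGA2-GFP was highest without overlap, and the groups of day 0 overlapped each other. Akt2 rose over time in MIGA2-KO (0.53 ± 0.083, edgeR adjusted p = 0.000105) and in WT (0.72 ± 0.082, edgeR adjusted p = 2.39e-06), and MIGA2-GFP exceeded WT (0.40 ± 0.082, edgeR adjusted p = 0.00212). MIGA2-GFP also exceeded MIGA2-KO (0.51 ± 0.082, edgeR adjusted p = 0.000177). MIGA2-KO was -0.11 from WT at day 6, with an interval of -0.29 to 0.07 (edgeR adjusted p = 0.264), although the ranges did not overlap. Per kb, Akt2 was at 0.426 times the level of Akt1, the more widely expressed kinase, in MIGA2-GFP (mean of 3 libraries), 0.180 times in MIGA2-KO day 6 (0.232, 0.150 and 0.158), 0.110 times in MIGA2-KO day 0, 0.366 times in WT day 6 (0.410, 0.372 and 0.315) and 0.137 times in WT day 0. This ratio depends on Akt1 as well, whose own level is not given here, and the part of each gene in it was not tested.

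**Figure D3:**
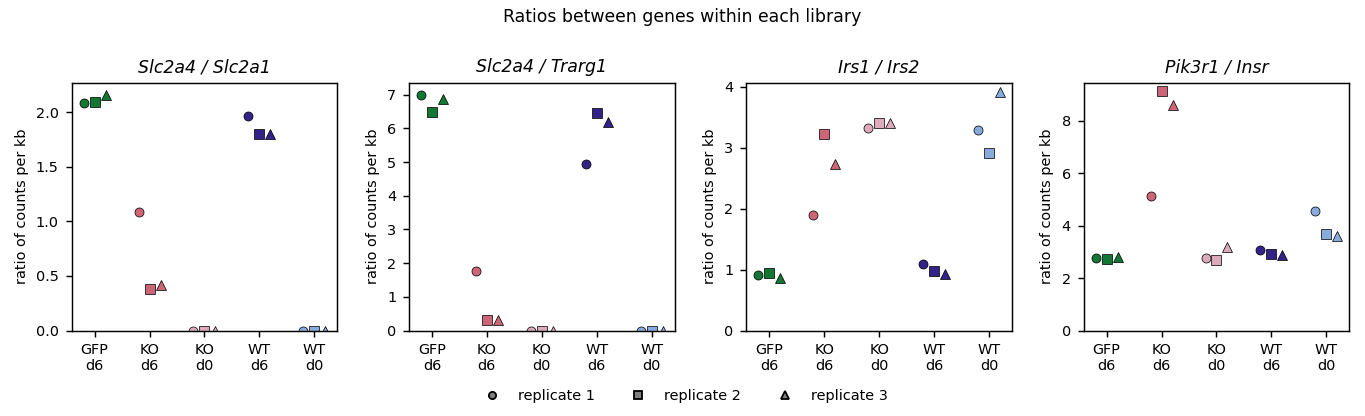
Ratios between genes within each library, as CPM per kb of the first gene divided by that of the other, for Slc2a4 over Slc2a1, Slc2a4 over Trarg1, Irs1 over Irs2 and Pik3r1 over Insr, with 1 point per library and linear axes from 0. In MIGA2-KO day 6 the first pair of ratios lies below, and the other pair above, those of MIGA2-GFP and WT at day 6.

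Counted over the 9 genes, the comparison of MIGA2-KO with WT at day 6 gave 3 higher genes (Trarg1, Irs1 and Pik3r1) and 4 lower genes (Slc2a4, Slc2a1, Insr and Tbc1d4), at an edgeR adjusted p under 0.05. Of all genes tested 29.2% were called higher and 31.5% lower, and the median log2 fold change was -0.24 for the 9 genes and -0.01 for all genes. In MIGA2-GFP against WT, 2 of the 9 were higher (Trarg1 and Akt2), where 16.5% of all genes were, and none was lower, where 18.9% were (edgeR, with 3 higher and 0 lower at an unadjusted p under 0.05 and 2 higher and 0 lower by DESeq2). The median was 0.40 for the 9 genes and 0.002 for all genes. WT day 6 replicate 1 bore on this count: without it Insr (0.57), Irs1 (0.52), Irs2 (0.60) and Pik3r1 (0.50) passed as higher in MIGA2-GFP as well. With GC content and transcript length corrected for, the same genes were at 0.06 (Insr), -0.03 (Irs1), 0.15 (Irs2) and -0.01 (Pik3r1), and the median of the 9 genes was 0.15. Slc2a1, in contrast, passed as higher in MIGA2-GFP with that correction. MIGA2-GFP against MIGA2-KO gave 6 higher genes (25.4% of all genes) and 1 lower gene, Irs1 (22.5% of all genes), with medians of 0.54 and 0.015. In WT over time 7 of the 9 rose, where 31.7% of all genes did, and Irs1 fell, where 33.1% did, with medians of 1.22 and -0.041 (1.22 also with Slc2a4 at its lower bound). Of the 9 genes in MIGA2-KO over time, 5 rose (23.3% of all genes) and Slc2a1 fell (21% of all genes), with medians of 0.53 and 0.018 (0.53 also with Slc2a4 at its lower bound). At day 0, MIGA2-KO had 2 higher genes (16.1% of all genes) and none lower (17.7% of all genes), with 3 and 0 at an unadjusted p under 0.05 in edgeR and 2 and 0 by DESeq2. These comparisons share groups, above all WT day 6 and MIGA2-KO day 6, so their values are not independent of each other. The labels do not say whether the 3 libraries of a group come from separate cultures, so a p-value reflects no more than the spread of these samples.

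**Figure D4:**
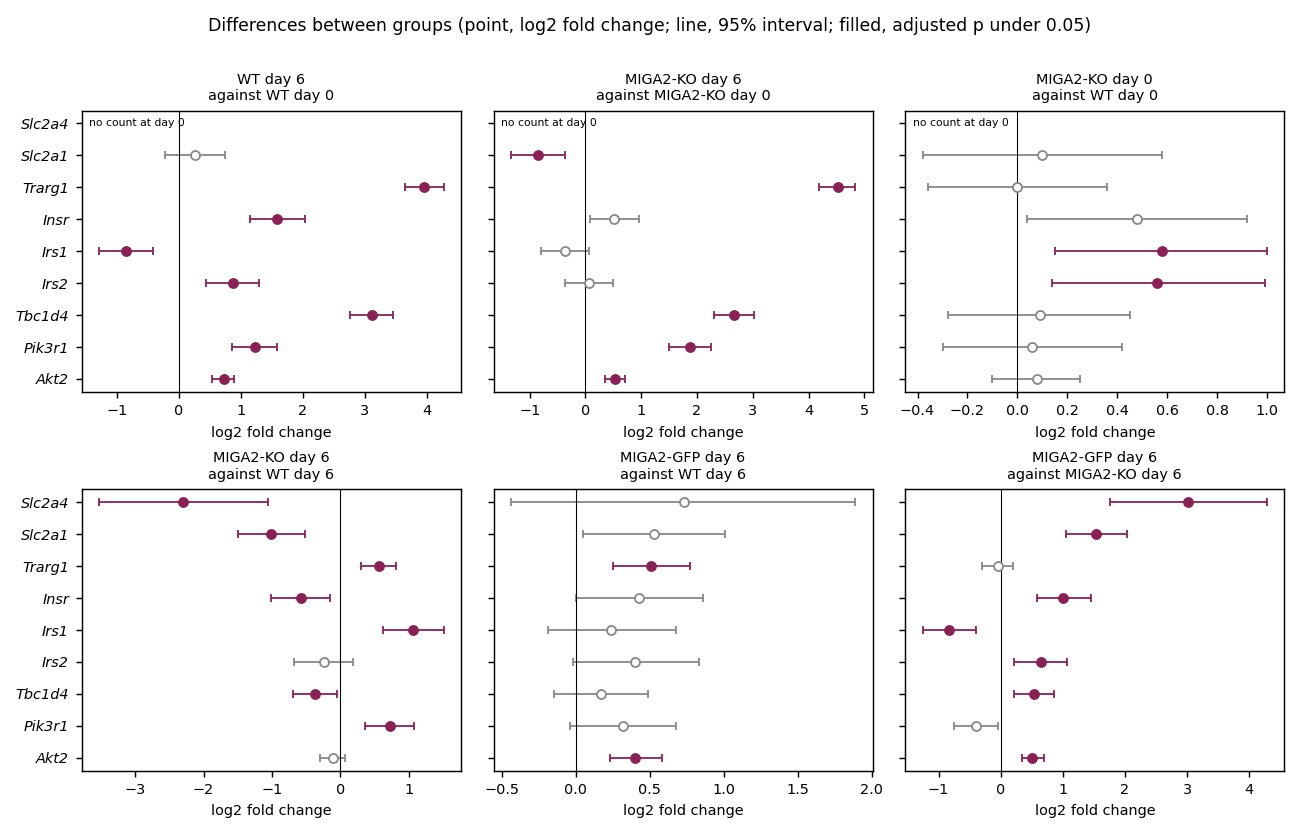
Log2 fold changes of the 9 genes in the 6 comparisons between groups, with 95% intervals, on separate linear axes, filled where the edgeR adjusted p is under 0.05. Slc2a4 is left out where day 0 had no count, and its interval is the widest in each comparison at day 6, at -3.53 to -1.06 for MIGA2-KO against WT.

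The change over time was also compared between the lines, as the change in MIGA2-KO minus the change in WT. Of the 9 genes 3 were called, all with a lower value in MIGA2-KO: Slc2a1 (-1.11 ± 0.32, edgeR adjusted p = 0.0187), Insr (-1.07 ± 0.29, edgeR adjusted p = 0.0138) and Irs2 (-0.81 ± 0.28, edgeR adjusted p = 0.0456). Among all genes 13.6% were called lower and 13.7% higher, and none of the 9 was called higher (2 at an unadjusted p under 0.05 in edgeR, and 1 by DESeq2). The median difference was -0.32 for the 8 genes that could be estimated and 0.022 for all genes. The Slc2a1 call was lost without MIGA2-KO day 6 replicate 2 (edgeR adjusted p = 0.0532), and the Irs2 call was lost in 13 of 24 alternatives, among them those without replicate 1 or 3 of WT day 0, replicate 1 of WT day 6, replicate 2 or 3 of MIGA2-KO day 6 or any 1 library of MIGA2-KO day 0 or MIGA2-GFP, whereas the Insr call held in all 24. Pik3r1 (0.65, edgeR adjusted p = 0.0539) and Trarg1 (0.56, edgeR adjusted p = 0.0583) did not pass, and each had the opposite sign to the 3 called genes. Both passed without replicate 1 of WT day 0 (Pik3r1 0.82, Trarg1 0.69) or of WT day 6 (Pik3r1 0.85, Trarg1 0.61). Irs1 (0.50, edgeR adjusted p = 0.211) likewise passed without replicate 1 of WT day 0 (0.70) or of WT day 6 (0.79). Trarg1 also passed without MIGA2-KO day 0 replicate 2, and Pik3r1 without MIGA2-KO day 6 replicate 1 (0.76). With GC content and transcript length corrected for, Tbc1d4 passed as lower in MIGA2-KO (-0.64, edgeR adjusted p = 0.00225, against -0.45 and 0.151 uncorrected), Trarg1 passed at 0.63 and Pik3r1 at 0.33. For Slc2a4 the difference could not be estimated, since neither line had a count at day 0. Adipocyte markers moved in the same direction as Slc2a1, Insr and Irs2 in this comparison, with 4 of 8 called lower in MIGA2-KO, and their part in these differences was not tested. At day 0, 5 of the 8 markers had a mean under 1 CPM in each line, so their change over time is poorly estimated. Cfd had no count there in either line, Cidec none in MIGA2-KO and Lep none in WT.

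Other genes of the pathway were read from lists of sugar transporters, receptor partners, kinases, brakes, vesicle proteins and transcription factors. The shares of all genes called in each comparison, given above, are the background to each count. Counts, medians and values of these lists are without correction for GC content and transcript length. That correction moved Pik3r1 from 0.72 to 0.11 in MIGA2-KO against WT at day 6, and its effect on the lists is not given here. Of 13 other sugar transporters 5 had enough counts to be tested. At day 6, 2 were higher and 2 lower in MIGA2-KO than in WT: Slc2a9, a urate transporter, was at 7.16 ± 0.697 CPM in MIGA2-KO and 3.27 ± 0.919 CPM in WT (SD, n = 3 each, log2 fold change 1.13 ± 0.22, edgeR adjusted p = 0.000517), and Slc2a8 at 24.0 ± 1.56 CPM in MIGA2-KO and 43.8 ± 13.0 CPM in WT (-0.87 ± 0.19, edgeR adjusted p = 0.00141). Slc2a10, for GLUT10, was higher in MIGA2-KO by 0.82 ± 0.17. In WT over time 2 rose and 3 fell, with Slc2a9 at -1.24. In MIGA2-GFP against WT Slc2a9 was higher (1.23) and Slc2a13, a myo-inositol transporter, lower (-1.54 ± 0.34, edgeR adjusted p = 0.00375).

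Of 17 tested partners of the receptor, 7 were higher and 2 lower in MIGA2-KO than in WT at day 6, with a median of 0.35. Sh2b2, which encodes the adaptor APS that binds the activated receptor, was at 35.75 CPM in MIGA2-KO and 124.5 CPM in WT (-1.80 ± 0.14, edgeR adjusted p = 2.11e-07), and Igf1r, for the related receptor of insulin-like growth factor 1, at 47.4 CPM in MIGA2-KO and 22.1 CPM in WT (1.10 ± 0.18, edgeR adjusted p = 0.000153). The receptor and its relative thus lay on opposite sides of WT. Igf1r was likewise higher in MIGA2-KO than WT before differentiation (1.33 ± 0.18) and in MIGA2-GFP than in WT (1.07 ± 0.18, edgeR adjusted p = 0.000666). Over time 3 partners rose and 5 fell in WT, and 4 rose and 3 fell in MIGA2-KO. Sh2b2 rose by 1.66 ± 0.15 in MIGA2-KO and by 4.25 ± 0.16 in WT, and the difference between the lines passed (-2.58 ± 0.21, edgeR adjusted p = 1.28e-06). MIGA2-GFP had 3 partners higher and 2 lower than WT.

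The 29 genes around phosphoinositide 3-kinase, AKT and the mTOR complexes were all tested, and 13 were higher and 10 lower in MIGA2-KO than in WT at day 6 (median 0.13). Gys1, glycogen synthase, which insulin activates through this pathway, was at 113 CPM in MIGA2-KO and 265 CPM in WT (-1.23 ± 0.096, edgeR adjusted p = 1.67e-07). Pik3ca, the catalytic subunit p110α that pairs with the product of Pik3r1, was at 73.2 CPM in MIGA2-KO and 38.25 CPM in WT (0.94 ± 0.13, edgeR adjusted p = 2.5e-05). Over time 8 rose and 12 fell in WT, and 7 rose and 11 fell in MIGA2-KO. Foxo1, a transcription factor that AKT keeps out of the nucleus, rose by 2.15 ± 0.11 in MIGA2-KO and 2.18 ± 0.11 in WT. MIGA2-GFP exceeded WT in 6 of the 29, among them Foxo4 (0.58 ± 0.13, edgeR adjusted p = 0.00348) and Foxo1 (0.49 ± 0.11, edgeR adjusted p = 0.00363).

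Among 27 tested brakes on the pathway 7 were higher and 5 lower in MIGA2-KO than in WT at day 6, with a median of -0.08. Trib2, a pseudokinase related to the AKT inhibitor TRIB3, was at 57.9 CPM in MIGA2-KO and 26.3 CPM in WT (1.14 ± 0.16, edgeR adjusted p = 4.1e-05). Socs2, of a family of suppressors of cytokine signalling, was at 33.8 CPM in MIGA2-KO and 78.4 CPM in WT at day 6 (-1.21 ± 0.15, edgeR adjusted p = 1.55e-05), and at 1.01 CPM in MIGA2-KO and 38.3 CPM in WT at day 0 (-5.24 ± 0.22, edgeR adjusted p = 2.43e-09). Over time 5 brakes rose and 11 fell in WT, and 6 rose and 8 fell in MIGA2-KO. Grb14, an adaptor that inhibits the receptor kinase, fell in both lines, with log2 fold changes of -3.23 ± 0.14 in MIGA2-KO and -2.49 ± 0.13 in WT. MIGA2-GFP had 6 brakes higher and 5 lower than WT, with Grb14 at -0.89 ± 0.15 (edgeR adjusted p = 0.000684).

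All 41 genes of GLUT4 vesicles and their trafficking were tested. In MIGA2-KO against WT 21 were higher and 7 lower at day 6 (median 0.40), and 16 were higher and 3 lower at day 0 (median 0.26). Rhoq, the small GTPase TC10, was at 132 CPM in MIGA2-KO and 36.2 CPM in WT at day 6 (1.86 ± 0.19, edgeR adjusted p = 1.87e-06), and Lrp1, a cargo receptor of the vesicles, at 1705 CPM in MIGA2-KO and 575 CPM in WT (1.57 ± 0.16, edgeR adjusted p = 2.16e-06). Rhoq was also higher in MIGA2-GFP than in WT (1.77 ± 0.19, edgeR adjusted p = 1.99e-05), in a comparison in which 11 were higher and 5 lower. Over time 11 rose and 13 fell in WT, and 10 rose and 8 fell in MIGA2-KO. Sort1, for sortilin, which takes part in forming the vesicles, rose by 2.34 ± 0.11 in MIGA2-KO and by 3.02 ± 0.11 in WT. MIGA2-GFP against MIGA2-KO gave 3 higher and 11 lower genes, with Lrp1 at -1.24 ± 0.16.

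Of 21 tested genes that are known to regulate transcription of Slc2a4, 7 were higher and 6 lower in MIGA2-KO than in WT at day 6, with a median of -0.12. Cebpa, a master regulator of fat cell genes, was at 30.6 CPM in MIGA2-KO and 209 CPM in WT (-2.77 ± 0.20, edgeR adjusted p = 7.91e-08). Pparg, its partner, was at 158 CPM in MIGA2-KO and 295 CPM in WT (-0.90 ± 0.082, edgeR adjusted p = 6.86e-07), and Nr1h3, for the nuclear receptor LXRα, at 44.4 CPM in MIGA2-KO and 150.4 CPM in WT (-1.76 ± 0.17, edgeR adjusted p = 1.29e-06). In MIGA2-GFP against WT, where Slc2a4 was at 338 to 361 CPM in MIGA2-GFP and 189.9 to 223 CPM in WT, Pparg (-0.64 ± 0.081, edgeR adjusted p = 7.82e-05) and Cebpa (-0.88 ± 0.19, edgeR adjusted p = 0.00263) were lower, and 1 gene of the list, Nfix, was higher (0.83 ± 0.20, edgeR adjusted p = 0.00705). MIGA2-GFP exceeded MIGA2-KO in 8 of the 21 and was lower in 5, with Klf15, a factor that acts with MEF2 on the Slc2a4 promoter, at 35.9 CPM in MIGA2-GFP and 3.93 CPM in MIGA2-KO (3.19 ± 0.31, edgeR adjusted p = 6.57e-06). Over time 11 rose and 6 fell in WT, and 12 rose and 2 fell in MIGA2-KO. Whether any of these factors acts on Slc2a4 in these cells was not tested.

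**Figure D5:**
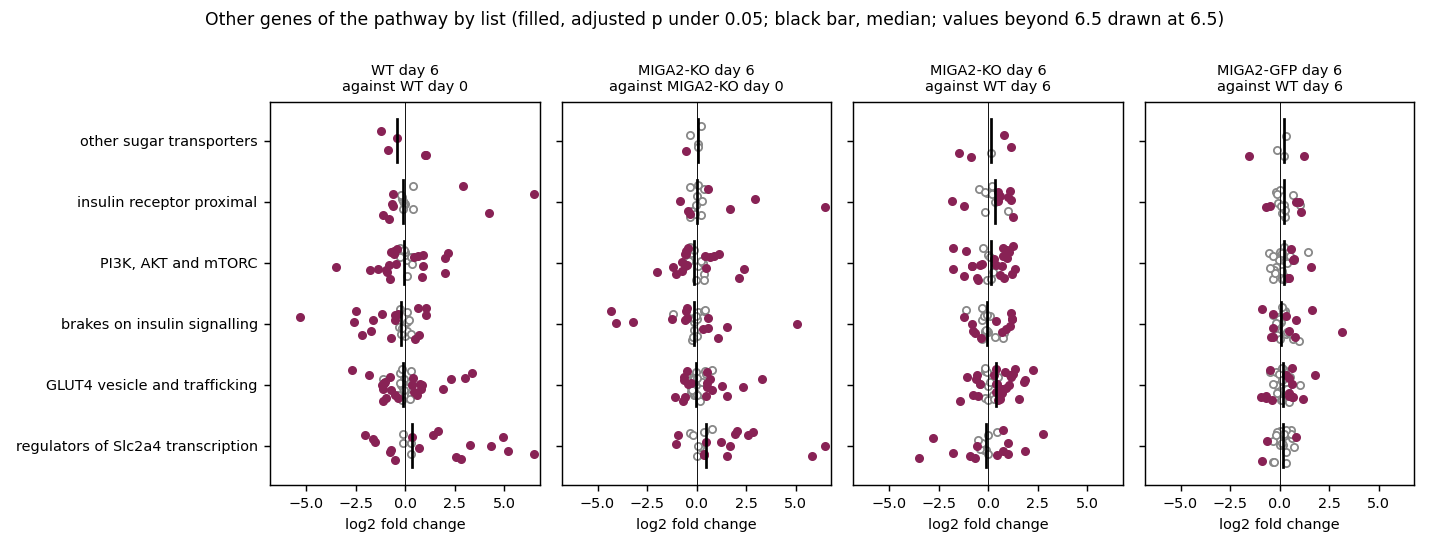
Log2 fold changes of the tested genes of 6 lists in 4 comparisons, filled where the edgeR adjusted p is under 0.05, with the list median as a bar, and values beyond the axis drawn at its edge. In MIGA2-KO against WT at day 6 the median of the vesicle and trafficking list is 0.40, and that of the regulators of Slc2a4 is -0.12.

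The genes with the most similar course over the 15 libraries were found by the Pearson correlation of log2 CPM, given here as a description because the libraries share groups and differ mainly by day. For Slc2a4 these were Hcar1 (0.9996), Slc13a4 (0.9974) and Retsat (0.9962). Trarg1 was closest to Stom (0.9962), and Tbc1d4 to Ppp2r1b (0.994) and, in the third place, to the lipid droplet gene Plin1 (0.9927). Irs1 followed Pdgfra (0.9933), the receptor that marks preadipocytes, Pik3r1 followed the clock gene Per2 (0.99), and Akt2 followed Tbl2 (0.9904). Insr was closest to Clic4 (0.9882). The nearest genes of Slc2a1 (Zfp467, 0.9687) and Irs2 (Myadm, 0.953) were less close. Among the 9 genes, Slc2a4, Trarg1, Tbc1d4 and Akt2 correlated with each other at 0.912 to 0.983, Irs1 was negatively correlated with all the others (-0.710 to -0.275), and Slc2a1 correlated with the others at -0.545 to 0.438.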

How the data were processed

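RNA-seq libraries (TruSeq stranded, per the labels' protocols) of 5 groups with 3 libraries each were analysed. The authors deposited read counts per gene for each library. Per the submitters' processing notes the tools were bcl2fastq 2.19, Trimmomatic, STAR 2.5.4b, featureCounts and edgeR, with build GRCm38.p5, and neither the annotation release nor the strand setting is stated in the sources used here. Of 25700 gene IDs, 25587 were matched to the GRCm38 reference annotation for symbols, lengths and coordinates, and 113 were not.

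Genes were kept at a minimum count of 10 in enough libraries and a total of 15 (12279 genes). edgeR 4.0.16 in R 4.3.3 was used with TMM scaling and a quasi-likelihood fit over all 5 groups, with Benjamini-Hochberg adjustment of p across the genes of each of 7 comparisons (6 between groups and 1 of the change over time). SE was taken as the log2 fold change over the root of the F statistic, and intervals cover 95%. A prior count of 2 was used for the log2 CPM behind the correlations, and fold changes kept the default of edgeR. CPM per kb uses the merged exon length. Alternatives used DESeq2 1.42.0, limma 3.58.1 (voom with quality weights), other filters, scalings and sample sets, a GC content and length correction, and each library left out. Tables were joined in Python 3.11.15.

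The 9 genes and all lists were chosen with earlier results of these data known. The text names the 9 genes in every library, up to 3 called genes per list and comparison with the smallest adjusted p and a mean of at least 5 CPM in a compared group, the 3 protein-coding genes most correlated with each of the 9 genes, and Miga2, and describes a selection of these. Depth sets the counting error only.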

Additional observations from a re-analysis of the deposited data

Results flagged for a closer look

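The change over time differed between the lines for 3 of the 9 genes, by a test of the difference itself. It was -1.11 ± 0.32 for Slc2a1, which was at 38.2 to 87.5 CPM in MIGA2-KO day 6 and 96.96 to 106 CPM in MIGA2-KO day 0, and at 97.6 to 125 CPM in WT day 6 and 81.4 to 104 CPM in WT day 0. For Insr it was -1.07 ± 0.29, and for Irs2 it was -0.81 ± 0.28. The values are log2 fold changes with SE from edgeR, in MIGA2-KO minus WT, and the adjusted p of Irs2, 0.0456, lies closest to the threshold of 0.05. The cause was not tested.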

How the results depend on the processing

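Over 24 alternatives, 63 values of the 9 genes (7 comparisons) gave 1511 results: 1377 held their side of the threshold, 56 lost a call, 77 gained one and 1 took the other sign with a call. Of the 1377, 23 took the other sign without a call either way, at sizes of up to 0.22. The call with the other sign was Pik3r1 in MIGA2-KO against WT at day 0, at -0.22 after correction for GC content and length (edgeR adjusted p = 0.0391). The number of the 9 genes called at day 0, 2, became 0 with only the groups compared, 0 with the replicate block and 1 with the block and the GC and length correction, and 0 to 3 with 1 library left out. In MIGA2-GFP against WT the number, 2, became 9 with voom quality weights, 5 with only the groups compared and 9 without replicate 1 of WT day 0, WT day 6 and MIGA2-KO day 6, an alternative chosen after seeing the data, and 2 to 6 with 1 library left out. For the change over time the number, 3, became 7 with voom (6 without Slc2a4, which had no count at day 0), 6 with the GC and length correction, 5 with the block and that correction, 6 without the 3 libraries, and 1 to 5 with 1 library left out. With 1 library left out the number was 5 to 7 in MIGA2-KO against WT at day 6, 8 to 8 in WT over time, 6 to 7 in MIGA2-KO over time and 6 to 8 in MIGA2-GFP against MIGA2-KO. The cause of these shifts was not tested. Replicate numbers did not pair the samples: correlations of deviations ran from -0.723 to 0.125 for the same number and from -0.412 to 0.715 for other numbers.

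Over all genes, voom with quality weights called 8212 genes against 5442 in MIGA2-KO over time, 6742 against 4159 at day 0, 7174 against 4338 in MIGA2-GFP against WT, 8950 against 5886 in MIGA2-GFP against MIGA2-KO and 7611 against 3346 for the change over time. Without WT day 0 replicate 1 the last number was 5186, and without the 3 libraries it was 7655. For MIGA2-GFP against WT the number was 2759 without WT day 6 replicate 2 and 7625 without the 3 libraries. Slc2a4 could not be tested at day 0 with only those groups, since it had no count there. Counts at this depth limit the low levels, such as Trarg1 and Tbc1d4 at day 0.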
